A study of Mus musculus with 4 samples.

Results

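The genes described here are 9 core components of mTOR and PI3K signalling: Mtor, Rptor, Rictor, Mlst8, Tsc1, Tsc2, Rheb, Akt1 and Rps6kb1. They were taken by symbol from a deposited table of 21738 mouse genes, all 9 were listed there once, and all 9 were among the 12585 genes with values high enough to be tested. The RNA came from neurospheres, spheres of dividing neural precursors grown in suspension, cultured for 7 days from the ventricular-subventricular zone (V-SVZ) of WT CD1 mice aged P7 or P8. It was recovered by RNA immunoprecipitation, in which an antibody pulls down a protein and the RNA that comes with it is sequenced. All 4 libraries share the strain, genotype, age and culture time and differ in the antibody: 2 libraries were made with anti-4E-T and 2 with control IgG, each pair numbered as experiments 1 and 2. The labels do not say how many animals were pooled or whether the experiments used separate cultures. Input RNA was not used here, so each difference is between the antibodies and not against the RNA of the cells.

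mTOR is a protein kinase that works in a pair of complexes. mTORC1 contains Raptor (Rptor) and drives protein synthesis and growth, mTORC2 contains Rictor and phosphorylates AKT, and mLST8 (Mlst8) is a subunit of both. Growth factor receptors activate PI3K, whose lipid product recruits AKT to the membrane. AKT phosphorylates TSC2, which with TSC1 forms a complex that switches off the small GTPase RHEB. GTP-bound RHEB activates mTORC1, and mTORC1 then phosphorylates the ribosomal protein S6 kinase S6K1 (Rps6kb1) and the 4E-BP proteins. The 4E-BPs bind the cap-binding protein eIF4E, and so does 4E-T, an eIF4E-binding protein of P-bodies that takes part in translational repression. In the V-SVZ, mTORC1 signalling is known for its part in the proliferation and differentiation of neural stem cells and their progeny.

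Transcripts for the kinase, its scaffold subunits and the TSC complex were higher in the 4E-T immunoprecipitates, while that of the GTPase between them was lower. Mtor, Rictor, Rptor, Tsc1, Tsc2 and Mlst8 were 1.53- to 2.07-fold higher with 4E-T than with IgG, and Akt1 was 1.31-fold higher. Rheb was 1.45-fold higher with IgG. Rps6kb1 had a lower mean with 4E-T and did not pass the test. Thus 7 of 9 were called higher and 1 lower, at a limma adjusted p under 0.05. Among all tested genes 49.5% were called, 34.3% higher and 15.2% lower, so calls in either direction were common in this comparison. The median log2 difference of the 9 was 0.76, against 0.16 for all tested genes. With no overlap between the groups counted in place of the test, all 9 separated the antibodies, 7 with 4E-T above IgG and 2 below, as did 75.7% of tested genes (50.5% above and 25.2% below).

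Values are FPKM, fragments per kilobase of exon, adjusted for sequencing depth as scaled by the authors. Differences are 4E-T minus IgG on the log2(FPKM + 1) scale with their standard error (SE, n = 2 per antibody), and p-values were adjusted over all tested genes. FPKM are relative to each library, so a lower value does not show that less of a transcript was recovered. The reads behind the members, recovered from the table, ran from 3431 (Tsc1, IgG library 2) to 39930 (Akt1, 4E-T library 1). The libraries held 72769612 to 85828188 such reads over the listed genes. The median tested gene was itself 0.16 higher with 4E-T, and centring the libraries on the tested genes brought that median to -0.0025. Without IgG library 2 the calls over all tested genes fell from 4318 higher and 1912 lower to 2389 and 1272, and without IgG library 1 there were 1101 lower. Of 12 markers of neural stem and precursor cells all 12 were tested, with a summed FPKM of 3776 and 3922 in the IgG pair against 5916 and 4495 in the 4E-T pair. Markers of microglia and blood summed to between 0.135 and 0.286 FPKM over the 3 of 7 that were listed, and those of endothelial, mural and fibroblast cells to between 1.20 and 2.08 over 7 of 8. Oligodendrocyte markers summed to 2.45 to 4.40 over 6, ependymal to 8.59 to 11.8 over 4 of 6, and neuronal to 67.8 to 79.8 over 8, most of it Map2. Astrocyte markers summed to 366 and 329 in the IgG pair against 837 and 665 in the 4E-T pair, most of it Aldh1l1. Without Aldh1l1 the astrocyte sum was 58.2 and 53.3 with IgG, against 52.5 and 45.8 with 4E-T, and of the 5 tested astrocyte markers Aldh1l1 was called higher, Aqp4 lower and the other 3 not. Most of the precursor sum was Fabp7, which overlapped between the antibodies and was not called. Of the 12 precursor markers 7 were called higher, as were 7 of the 9 members and 34.3% of all tested genes. The part of the precursor markers in the members' differences was not tested. In bulk immunoprecipitates the share of a cell type, the RNA per cell and the recovery of a transcript by the antibody cannot be told apart. The marker sums therefore do not measure cell composition.

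The stretches upstream of 4 members are shown because these had the largest differences in each direction, Mtor and Rictor upward and Rheb and Rps6kb1 downward. Each is the 250 bases before a transcription start that RefSeq gives for the gene (GRCm38.p6), 5′ to 3′ on the strand of the gene. The windows of Mtor and Rheb end at the edge of the gene interval given below, while 32 bases of the Rictor window and 78 of the Rps6kb1 window lie inside it. Mtor is at chr4:148448332-148448581 (plus strand), Rictor at chr15:6708131-6708380 (plus), Rheb at chr5:24842362-24842611 (minus) and Rps6kb1 at chr11:86544808-86545057 (minus). Capitals mark CCAAT boxes (CCAAT, read on both strands) in Mtor, GC boxes (GGGCGG, both strands) in Rictor, the E-box CACGTG in Rheb and the core GCATGCGC of the NRF1 motif (both strands) in Rps6kb1.
Mtor: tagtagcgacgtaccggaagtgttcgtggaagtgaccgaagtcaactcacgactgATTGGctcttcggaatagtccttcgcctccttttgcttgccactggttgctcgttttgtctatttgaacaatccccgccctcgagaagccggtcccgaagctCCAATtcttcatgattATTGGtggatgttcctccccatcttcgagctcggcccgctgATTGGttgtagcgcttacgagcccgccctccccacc
Rictor: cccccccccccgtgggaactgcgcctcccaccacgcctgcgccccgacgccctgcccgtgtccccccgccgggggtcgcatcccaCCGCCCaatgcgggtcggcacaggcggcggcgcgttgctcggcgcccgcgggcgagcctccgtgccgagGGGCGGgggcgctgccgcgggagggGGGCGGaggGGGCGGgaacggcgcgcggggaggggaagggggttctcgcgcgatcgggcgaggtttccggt
Rheb: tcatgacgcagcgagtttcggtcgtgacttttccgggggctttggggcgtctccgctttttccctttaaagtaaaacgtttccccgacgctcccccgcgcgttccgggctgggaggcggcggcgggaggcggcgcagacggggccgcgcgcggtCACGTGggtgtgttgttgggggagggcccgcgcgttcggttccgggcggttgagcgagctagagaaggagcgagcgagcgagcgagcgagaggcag
Rps6kb1: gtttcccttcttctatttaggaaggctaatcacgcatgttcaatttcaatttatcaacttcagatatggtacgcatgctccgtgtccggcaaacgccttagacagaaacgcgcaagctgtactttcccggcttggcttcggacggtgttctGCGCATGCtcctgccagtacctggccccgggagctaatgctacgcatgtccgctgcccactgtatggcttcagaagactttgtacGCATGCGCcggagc

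CCAAT boxes and GC boxes each fell on more than 1 member, while the E-box and the NRF1 core each fell on 1. Mtor had 4 CCAAT boxes and 2 GC boxes, and Rictor 4 GC boxes and 1 CCAAT box. Rheb held 1 E-box and 1 GC box, and Rps6kb1 held 2 NRF1 cores and none of the other motifs. Of all 32851 RefSeq promoter windows of this length, 33.8% held a CCAAT box, 32.7% a GC box, 6.02% the E-box and 2.26% the NRF1 core. All 9 members had a window. Those of Rptor, Mlst8, Tsc1 and Tsc2 held none of these 4 motifs, and of the 2 Akt1 starts 1 held 4 GC boxes. The CCAAT box of Rictor shares letters with the first of its marked GC boxes. A match describes these letters only, and immunoprecipitated RNA does not show where a factor binds.

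Mtor, the kinase itself (ENSMUSG00000028991.15; chromosome 4, 148448582 to 148557685, GRCm38.p6), had the largest difference of the 9. In libraries 1 and 2 its FPKM was 13.0 and 13.4 with IgG, against 31.1 and 25.7 with 4E-T. The values of every gene follow in this order. Both 4E-T libraries lay well above both IgG libraries, and the 4E-T pair differed more from each other than the IgG pair did. The log2 difference was 1.05 ± 0.14 (SE; limma adjusted p = 9.67e-07), a fold of 2.07, and ranked 354 from the top among the 12585 tested genes. Within experiment 1 the difference was 1.20 and within experiment 2 it was 0.89. Angptl7, which lies within the Mtor interval, was not analysed here.

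Rictor, the scaffold of mTORC2 (ENSMUSG00000050310.9; chromosome 15, 6708349 to 6800401), had 8.69 and 7.79 FPKM in the IgG pair against 18.1 and 16.5 in the 4E-T pair. The groups were far apart relative to the gap within each pair, with a log2 difference of 0.99 ± 0.14 (limma adjusted p = 1.61e-06), 0.98 in experiment 1 and 0.99 in experiment 2. Rptor, the scaffold of mTORC1 that recruits its substrates (ENSMUSG00000025583.15; chromosome 11, 119602905 to 119899591), had 10.6 and 9.62 FPKM in the IgG pair against 20.7 and 18.4 in the 4E-T pair. Again neither 4E-T library came near an IgG value. Its log2 difference was 0.88 ± 0.14 (limma adjusted p = 8.38e-06), 0.90 and 0.87 in the pair of experiments. Rptoros, a lncRNA that overlaps Rptor, was near 0 in every library (0.0114 to 0.154 FPKM). The ratio of Rptor to Rictor FPKM was 1.22 and 1.23 in the IgG pair against 1.14 and 1.11 in the 4E-T pair.

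Mlst8, the subunit shared by both complexes (ENSMUSG00000024142.14; chromosome 17, 24473550 to 24479114), had 13.8 and 12.7 FPKM in the IgG pair against 21.0 and 20.6 in the 4E-T pair. The groups did not overlap, and the 4E-T libraries were almost equal. Its log2 difference of 0.62 ± 0.14 (limma adjusted p = 0.000534) was smaller than those of Mtor, Rictor and Rptor. Bricd5, which overlaps Mlst8 over 1922 bp, was not analysed here. Relative to Mtor in the same library, Mlst8 stood at 1.06 and 0.947 with IgG and at 0.675 and 0.802 with 4E-T.

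Tsc1, which encodes the stabilising subunit hamartin (ENSMUSG00000026812.16; chromosome 2, 28640993 to 28691172), was the member with the lowest level. It had 5.81 and 5.03 FPKM in the IgG pair against 10.4 and 10.96 in the 4E-T pair, so that each 4E-T value was above both IgG values. The log2 difference was 0.86 ± 0.14 (limma adjusted p = 8.01e-06), 0.74 in experiment 1 and 0.99 in experiment 2. Tsc2, which encodes tuberin, the subunit that acts on RHEB (ENSMUSG00000002496.10; chromosome 17, 24595816 to 24632676), had 19.9 and 17.2 FPKM in the IgG pair against 35.1 and 29.5 in the 4E-T pair. Here too the antibodies did not overlap, with library 1 the higher of each pair, and the log2 difference reached 0.76 ± 0.14 (limma adjusted p = 7.79e-05). Tsc2 overlaps the neighbouring gene Pkd1 over 699 bp and the libraries do not mark strand, so reads there could not be told apart. Pkd1 had 10.6 and 9.52 FPKM in the IgG pair against 13.3 and 16.4 in the 4E-T pair. The ratio of Tsc1 to Tsc2 was 0.292 in both IgG libraries, and 0.295 and 0.372 with 4E-T.

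Rheb, the GTPase that the TSC complex switches off and that activates mTORC1 (ENSMUSG00000028945.9; chromosome 5, 24802823 to 24842361), went the other way. Its FPKM was 34.6 and 34.4 in the IgG pair against 23.8 and 23.1 in the 4E-T pair. Libraries of the same antibody were nearly equal, and both IgG values were higher. This gave a log2 difference of -0.54 ± 0.14 (limma adjusted p = 0.00195), with -0.52 in experiment 1 and -0.56 in experiment 2. It ranked 1059 from the bottom of the 12585 tested genes.

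Rps6kb1, the kinase S6K1 that mTORC1 activates (ENSMUSG00000020516.15; chromosome 11, 86498869 to 86544885), had 20.6 and 21.3 FPKM in the IgG pair against 16.4 and 17.5 in the 4E-T pair. Both 4E-T values lay under both IgG values. On the log2 scale the difference was -0.29 ± 0.14 with a 95% confidence interval from -0.57 to -0.0055, and the limma adjusted p of 0.0838 missed the threshold. Rps6kb1 was called lower once the libraries were centred on the tested genes (median ratio scaling, -0.47, limma adjusted p = 0.00633) and with quantile normalisation (-0.48, limma adjusted p = 0.00300). The neighbouring gene Rnft1 overlaps it over 139 bp and had 12.1 and 10.3 FPKM in the IgG pair against 8.61 and 8.64 in the 4E-T pair. Its paralog Rps6kb2, the kinase S6K2, had 17.0 and 17.8 FPKM in the IgG pair against 18.1 and 21.0 in the 4E-T pair. That difference of 0.16 ± 0.14 was not called (limma adjusted p = 0.357) and turned to -0.019 with median ratio scaling.

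Akt1, the kinase that links PI3K to the TSC complex (ENSMUSG00000001729.14; chromosome 12, 112653821 to 112674884), was by far the most abundant member. It had 152.6 and 145.8 FPKM in the IgG pair against 198.6 and 193.2 in the 4E-T pair, and 98.1% of tested genes had a lower mean level. The groups did not overlap. Its log2 difference was small, 0.39 ± 0.16 (95% confidence interval 0.066 to 0.72), and passed narrowly (limma adjusted p = 0.0421). It was no longer called in the absence of IgG library 1 (limma adjusted p = 0.176), of IgG library 2 (0.263) or of 4E-T library 1 (0.0813), nor with median ratio scaling (0.20 on the log2 scale, limma adjusted p = 0.206), quantile normalisation (limma adjusted p = 0.0998) or no filter (0.0645). Its paralog Akt2 had 49.4 and 49.7 FPKM in the IgG pair against 47.0 and 47.2 in the 4E-T pair, a difference of -0.072 ± 0.14 that was not called (limma adjusted p = 0.70). It was called lower once the length trend was removed (-0.30, limma adjusted p = 0.0436). The lncRNA Gm30150, which overlaps Akt1 over 409 bp, was not analysed here. Whether Akt1 differed from Akt2 in this respect was not tested.

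**Figure D1:**
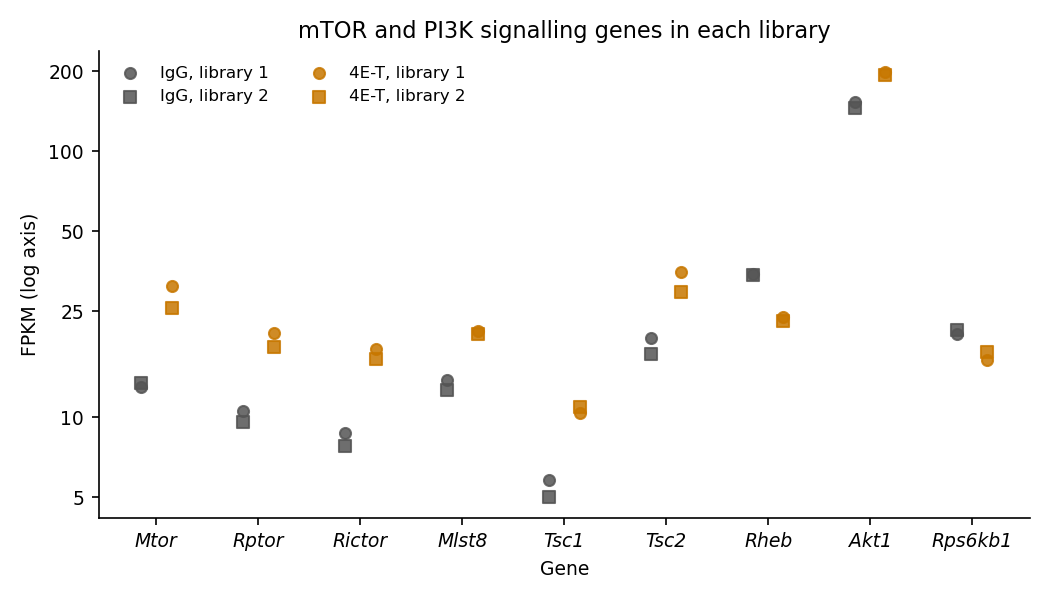
FPKM (log axis) of the 9 genes in each library, with IgG in grey and 4E-T in orange, library 1 as circles and library 2 as squares. The orange points lie above the grey ones for 7 genes and below them for Rheb (23.1 to 23.8 against 34.4 to 34.6) and Rps6kb1.

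**Figure D2:**
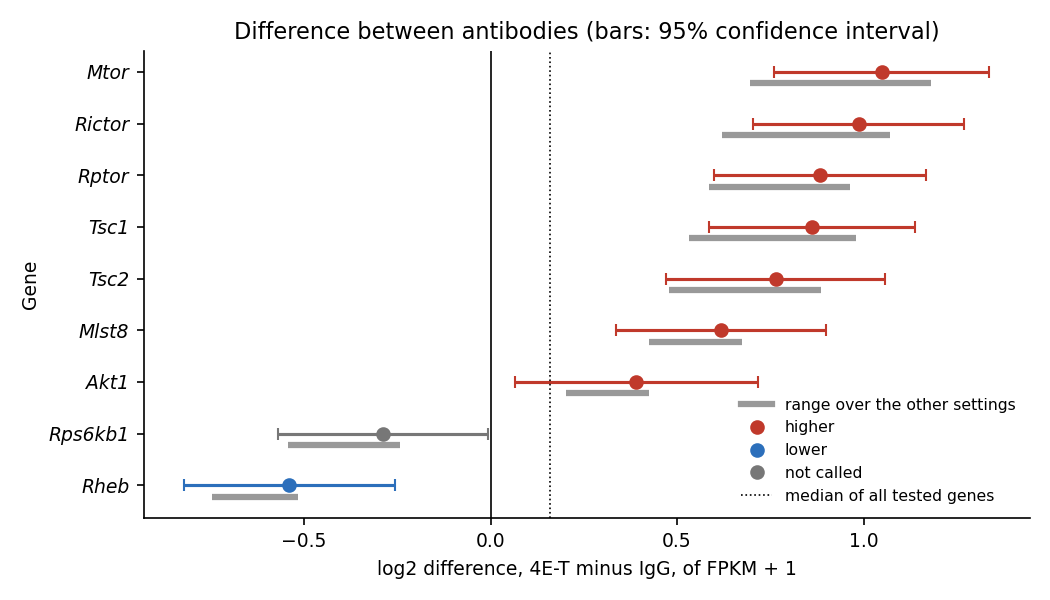
Log2 difference of FPKM + 1 (4E-T minus IgG) for each gene, with points for the estimate, bars for its 95% confidence interval and a grey band for the range over the other settings; the dotted line is the median of all tested genes, 0.16. Every gene keeps its sign over these settings, from 0.70 to 1.18 for Mtor and from -0.75 to -0.52 for Rheb.

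The order of the members by level changed with the antibody. With IgG it ran from Akt1 (149 FPKM on average) through Rheb (34.5), Rps6kb1 (20.9), Tsc2 (18.6), Mlst8 (13.2), Mtor (13.2), Rptor (10.1) and Rictor (8.24) to Tsc1 (5.42). The only neighbours in that order whose ranges overlapped were Mlst8 and Mtor. With 4E-T it ran from Akt1 (195.9) through Tsc2 (32.3), Mtor (28.4), Rheb (23.4), Mlst8 (20.8), Rptor (19.5), Rictor (17.3) and Rps6kb1 (17.0) to Tsc1 (10.7). There the ranges of Tsc2 and Mtor, of Mlst8 and Rptor, and of Rictor and Rps6kb1 overlapped. Rheb therefore stood above Mtor and Tsc2 in both IgG libraries and below them in both 4E-T libraries.

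Ratios of FPKM within a library do not depend on how the library was scaled. Rheb over Mtor was 2.67 and 2.57 in the IgG pair against 0.765 and 0.896 in the 4E-T pair. Rheb over Tsc2 was 1.74 and 1.99 in the IgG pair against 0.678 and 0.783 in the 4E-T pair, and Rheb over Tsc1 was 5.96 and 6.83 against 2.30 and 2.10. The GTPase transcript was thus less abundant relative to its regulators and its target in every 4E-T library than in every IgG library. Rps6kb1 over Mtor was 1.59 in both IgG libraries, and 0.528 and 0.681 with 4E-T. The ratio of Rictor to Mtor, by contrast, overlapped between the antibodies, at 0.671 and 0.582 in the IgG pair against 0.582 and 0.642 in the 4E-T pair. The ratio of Rptor to Mtor was 0.818 and 0.718 with IgG, against 0.664 and 0.714 with 4E-T, so that IgG library 2 and 4E-T library 2 were almost equal. With 2 libraries against 2, an exact two-sided permutation test cannot go below a p of 0.333, so these ratios are given without a test.

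**Figure D3:**
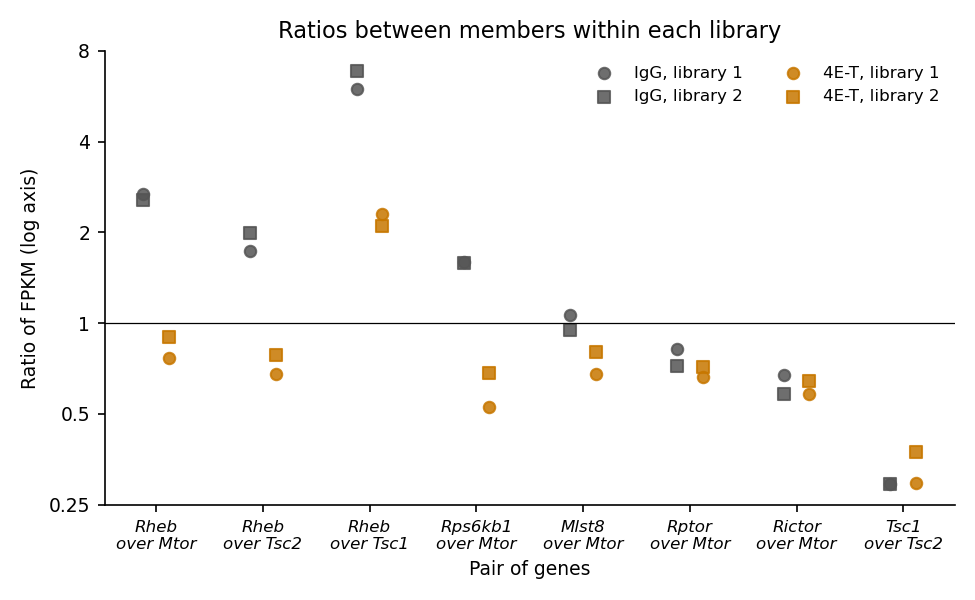
Ratio of FPKM (log axis) between 2 members within the same library, with IgG in grey, 4E-T in orange, library 1 as circles and library 2 as squares. The ratios of Rheb and Rps6kb1 to Mtor lie above 1 with IgG and below 1 with 4E-T, while those of Rptor and Rictor to Mtor stay between 0.582 and 0.818.

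Length moved with these differences. Tested genes with under 2000 bp of exon had a median log2 difference of 0.016 and 19.4% were called higher, while those of 6000 bp or more had a median of 0.33 and 50.4% were called higher. The 5 members with at least 6000 bp, Rictor (9312 bp), Mtor (8564), Tsc1 (7702), Rptor (6594) and Tsc2 (6266), were the 5 with the largest differences. Mlst8 (3366 bp) and Akt1 (2690 bp) were shorter and had smaller ones. Rheb (4046 bp) and Rps6kb1 (5531 bp) were of middle length, where the median of tested genes was 0.23. With the trend on length removed, which also centred the tested genes near 0, Mtor kept a difference of 0.70 (limma adjusted p = 0.000854) and Tsc2 of 0.48 (limma adjusted p = 0.00551). Rheb was at -0.75 (limma adjusted p = 0.000336) and Rps6kb1, now called lower, at -0.54 (limma adjusted p = 0.00286). Akt1 was not called (0.24, limma adjusted p = 0.113).

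**Figure D4:**
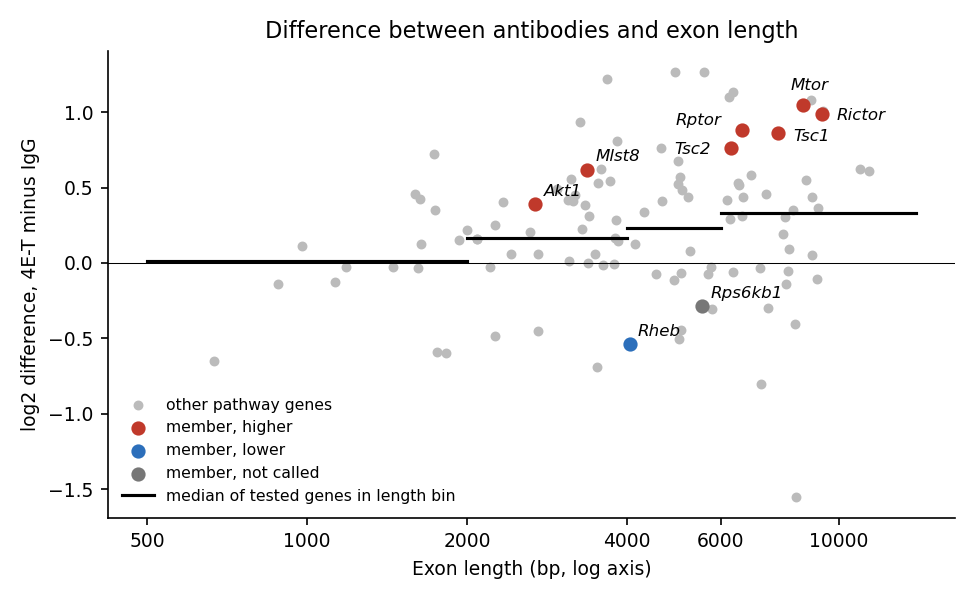
Log2 difference (4E-T minus IgG, FPKM + 1) against exon length (bp, log axis) for the 9 members (coloured by call and named) and the other tested pathway genes (grey), with black bars for the median of all tested genes in each of 4 length bins. Members of at least 6000 bp lie at 0.76 to 1.05, above the bin median of 0.33.

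The genes whose values across the 4 libraries were most like those of Mtor and Rheb were found by the distance between gene-centred log2(FPKM + 1) values. Ankrd17 was nearest to Mtor (distance 0.021), with 13.3 and 13.9 FPKM in the IgG pair against 31.7 and 26.8 in the 4E-T pair. Sipa1l1 (0.034) and Smtn (0.036) came next. Atxn7l1 (0.015), Dusp19 (0.025) and Gnpda1 (0.028) were nearest to Rheb. Each distance rests on 4 values per gene.

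The wider pathway was covered by 112 other genes in 8 lists, of which 111 were in the table and 100 were tested. Of these 43 were called higher and 10 lower, with a median log2 difference of 0.22. Among all tested genes 34.3% were higher and 15.2% lower. With median ratio scaling 27 of the 100 were higher and 13 lower, against 22.8% and 23.6% of all tested genes. With the length trend removed 22 were higher and 21 lower, against 23.1% and 23.5%, so the share called higher was then no longer above that of all tested genes. Leaving out IgG library 2 left 21 higher and 6 lower, and leaving out IgG library 1 left 33 and 6.

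At the receptor end, 7 of 8 tested insulin receptor and adaptor genes were called higher and 0 lower, with a median of 0.57. These 8 genes had a median exon length of 7605 bp. The share called higher was 34.3% over all tested genes and 50.4% over those with 6000 bp of exon or more. Irs2, an adaptor between the insulin receptor and PI3K, had 31.0 and 29.7 FPKM in the IgG pair against 71.2 and 64.3 in the 4E-T pair, a log2 difference of 1.13 ± 0.14 (limma adjusted p = 3.70e-07). The receptor genes Igf2r (1.08 ± 0.14) and Insr (1.01 ± 0.14) were also higher, the first from a low level of 1.65 and 1.45 FPKM with IgG. Among 9 tested PI3K subunit genes 5 were called higher and 0 lower, with a median of 0.41 and a median exon length of 6478 bp. The largest differences belonged to the class III enzyme of endosomes and autophagy, with Pik3r4 at 1.26 ± 0.15 and Pik3c3 at 0.93 ± 0.15. The class I catalytic genes Pik3ca (0.43 ± 0.15) and Pik3cb (0.53 ± 0.14) were called too, but neither held when the fit dropped IgG library 2 (limma adjusted p = 0.262 and 0.0756) or when the length trend was removed (0.075 and 0.24 on the log2 scale, limma adjusted p = 0.654 and 0.11). Pik3ca was also lost when 4E-T library 1 was dropped (limma adjusted p = 0.126), with no filter (0.0634), under quantile normalisation (0.108) and under median ratio scaling (0.114).

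Between PI3K and AKT the directions were mixed. Pdpk1, the kinase PDK1 that phosphorylates AKT, fell from 20.6 and 18.9 FPKM with IgG to 10.5 and 11.3 with 4E-T (log2 difference -0.80 ± 0.14, limma adjusted p = 2.92e-05). It was the only gene called lower among the 5 tested AKT, PDK1 and SGK genes, where Sgk1 (0.42 ± 0.14) was the only one called higher. Of 8 tested phosphatase genes 2 were called higher and 1 lower. For both lists the shares to set beside these counts are 34.3% higher and 15.2% lower over all tested genes. Phlpp1, which dephosphorylates AKT, was higher by 1.10 ± 0.14 and Inppl1, a lipid phosphatase gene, by 0.68 ± 0.14. Sgk1 missed the threshold in the absence of IgG library 2 (limma adjusted p = 0.196) or of 4E-T library 1 (0.149), with no filter (0.054), and with median ratio scaling (0.108), quantile normalisation (0.0957) or the length trend removed (0.0888).

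Around the mTOR complexes, 4 of 7 other tested subunit and assembly genes were called higher and 1 lower. Over all tested genes these shares were 34.3% and 15.2%. Tti1 (0.81 ± 0.15) and Telo2 (0.76 ± 0.14), whose products help fold mTOR and related kinases, were higher. Prr5, a subunit of mTORC2, had 8.46 and 9.93 FPKM in the IgG pair against 6.07 and 5.41 in the 4E-T pair (-0.60 ± 0.14, limma adjusted p = 0.000702), the opposite direction to Rictor. The same list held Prr5l, narrowly called higher (0.34 ± 0.14, limma adjusted p = 0.0445), and Mapkap1, which was not called (0.014 ± 0.14). Of 28 tested genes of lysosomal nutrient sensing 13 were higher and 3 lower, against 34.3% and 15.2% of all tested genes, with a median of 0.29. The GATOR complexes, which control the Rag GTPases, accounted for 7 of the 13: Nprl2 (0.72 ± 0.14), Nprl3 (0.53), Depdc5 (0.35), Mios (0.54), Wdr24 (0.56), Wdr59 (0.48) and Sec13 (0.46). Seh1l, the remaining gene of the 8, was lower, with 52.1 and 51.5 FPKM in the IgG pair against 30.5 and 33.0 in the 4E-T pair (-0.69 ± 0.14, limma adjusted p = 0.000215). Apart from Nprl2 and Seh1l, the GATOR genes were named after their values were seen. The KICSTOR genes Kptn (0.43) and Itfg2 (0.45) were called higher as well. Without IgG library 2 the calls of Depdc5, Mios, Wdr24, Sec13, Kptn and Itfg2 were lost (limma adjusted p 0.0527 to 0.174), and those of Depdc5 and Sec13 also without IgG library 1 or 4E-T library 1. Median ratio scaling ended the calls of Depdc5, Sec13, Kptn and Itfg2 (limma adjusted p = 0.198, 0.0964, 0.078 and 0.0561), quantile normalisation those of Depdc5, Kptn and Itfg2 (0.232, 0.0781 and 0.0526), and having no filter that of Depdc5 (0.0657). With the length trend removed Depdc5 was at 0.0077 (limma adjusted p = 0.96) and Wdr59 at 0.24 (0.0861), and neither was called. Lamtor2, a subunit of the lysosomal Ragulator complex, was lower (-0.65 ± 0.15), but not without IgG library 2 (limma adjusted p = 0.0593).

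In the AMPK and stress branch, 3 of 13 tested genes were called higher and 2 lower, against 34.3% and 15.2% of all tested genes. The median was 0.16, the same as that of all tested genes. Stk11, the kinase LKB1 that activates AMPK, had 10.2 and 9.84 FPKM in the IgG pair against 22.9 and 26.6 in the 4E-T pair, a log2 difference of 1.22 ± 0.14 (limma adjusted p = 7.89e-08). The AMPK subunit genes Prkaa1 (0.41 ± 0.14) and Prkab2 (-0.51 ± 0.13) went in opposite directions, and Ddit4l, which encodes an mTORC1 inhibitor, was lower (-0.45 ± 0.14). None of these 3 calls held without every library: Prkaa1 missed the threshold in the absence of IgG library 2 (limma adjusted p = 0.289) or 4E-T library 1 (0.0753), Prkab2 without IgG library 1 (0.0647) or 4E-T library 1 (0.0514), and Ddit4l without either IgG library (0.0988 and 0.0746). Prkaa1 was also lost with no filter (limma adjusted p = 0.0665), median ratio scaling (0.24 on the log2 scale, limma adjusted p = 0.14), quantile normalisation (limma adjusted p = 0.127) and the length trend removed (0.19 on the log2 scale, limma adjusted p = 0.209).

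Among 22 tested genes whose products act downstream of mTORC1 and AKT, 8 were called higher and 2 lower, with a median of 0.19. These values were near the 34.3%, 15.2% and 0.16 of all tested genes. Lpin1, a phosphatidate phosphatase that mTORC1 phosphorylates, was higher, with 24.5 and 24.1 FPKM in the IgG pair against 63.7 and 56.1 in the 4E-T pair (1.27 ± 0.14, limma adjusted p = 5.96e-08). Foxo3, a transcription factor that AKT inhibits, was higher by 0.58 ± 0.14, though it missed the threshold when the fit dropped IgG library 1 (limma adjusted p = 0.0724) and with the length trend removed (0.28 on the log2 scale, limma adjusted p = 0.187). Gsk3b, a kinase that AKT inhibits, had the largest difference of the pathway in either direction. Its FPKM was 64.8 and 74.1 in the IgG pair against 19.2 and 27.5 in the 4E-T pair, a log2 difference of -1.55 ± 0.16 (limma adjusted p = 5.13e-08). Gsk3a was lower by less (-0.48 ± 0.14), and it was not called in the absence of either IgG library or of 4E-T library 1 (limma adjusted p = 0.0552, 0.0738 and 0.0724). Eif4ebp1 and Eif4ebp2 encode eIF4E-binding proteins that compete for the same partner as 4E-T. Neither was called with the values as deposited and the antibody as the only term. Eif4ebp1 had 129.1 and 134.4 FPKM in the IgG pair against 165.5 and 142.6 in the 4E-T pair (0.22 ± 0.16, limma adjusted p = 0.256), and Eif4ebp2 had 15.0 and 17.6 against 12.2 and 13.8 (-0.31 ± 0.14, limma adjusted p = 0.0706; called lower with median ratio scaling, -0.48, limma adjusted p = 0.0112). Eif4ebp2 was also called lower with quantile normalisation (-0.49, limma adjusted p = 0.00656) and the length trend removed (-0.58, limma adjusted p = 0.00588).

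**Figure D5:**
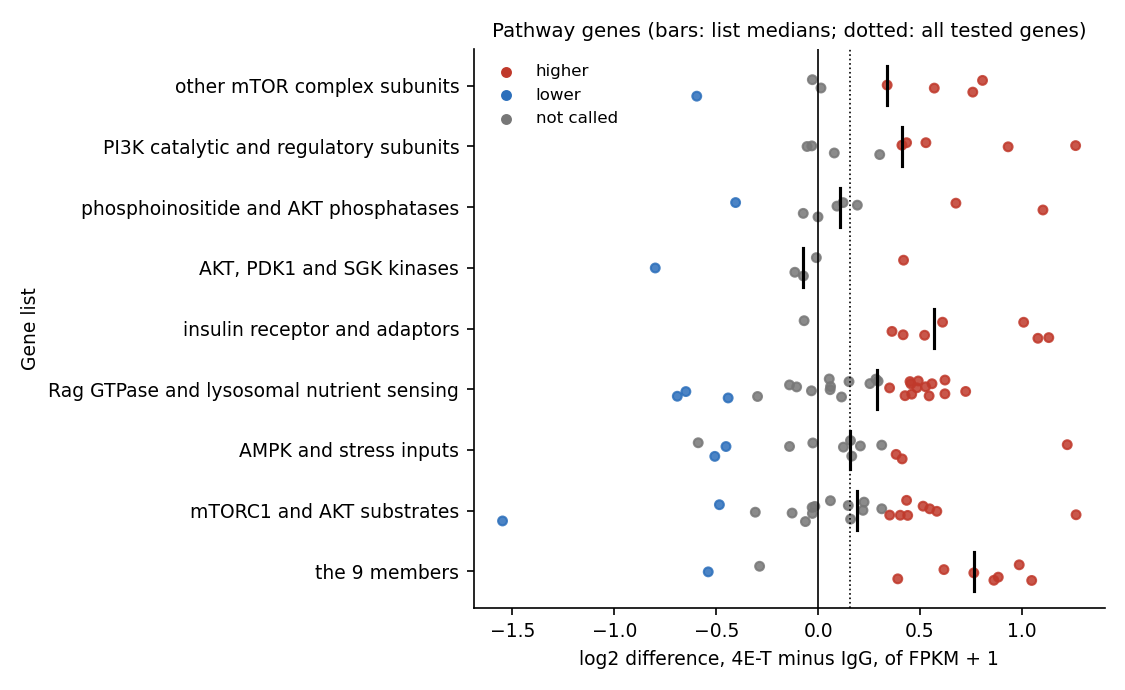
Log2 difference (4E-T minus IgG, FPKM + 1) of each tested gene in 8 pathway lists and of the 9 members, in red where called higher, blue where called lower and grey where not called; black bars are list medians and the dotted line is the median of all tested genes, 0.16. The member median of 0.76 lies to the right of the list medians, which run from -0.072 to 0.57.

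The authors' deposited table gives the same signs for all 9 members. At its adjusted p under 0.05 it calls 7 of the 9 higher and 1 lower, against 20.0% and 11.9% of its genes. Those shares are over all 21738 listed genes, 9153 of which were too low to be tested here. They are not on the same base as the 34.3% and 15.2% of tested genes. In the authors' deposited table the log2 fold change was 1.11 for Mtor, 1.07 for Rictor, 0.98 for Tsc1, 0.95 for Rptor, 0.80 for Tsc2, 0.65 for Mlst8 and 0.39 for Akt1. For Rheb the authors' deposited table has -0.56, with an adjusted p of 0.000247, and for Rps6kb1 -0.30, with an adjusted p of 0.0767. These values come from the same 4 libraries and are not a second measurement.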

How the data were processed

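RNA immunoprecipitates from 4 libraries were compared, 2 with anti-4E-T and 2 with control IgG. Per the labels' protocols, the Magna RIP kit was used for the immunoprecipitation, cDNA was made with SMART-Seq v4, which does not mark strand, and libraries made with Nextera XT. Tools in the submitters' processing notes are the build mm10, DESeq2 1.26.0, DESeq, HTSeq 0.6.1p2, STAR 2.6.0c, Trim Galore 0.5.0 and FastQC 0.11.5, listed with no order and with settings not given in the sources used here. The authors deposited FPKM per gene and library in 1 table of 21738 genes. The deposited baseMean column, a signal, averages the scaled reads of a gene. The deposited log2 fold changes with SE, the test statistic (a score), the p-values and the linear fold are the authors' own comparison.

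FPKM are not counts, so log2(FPKM + 1) values were tested by limma 3.58.1 in R 4.3.3, with trend and robust options and no term but the antibody. A gene was tested if 2 or more libraries had 1 FPKM or above (12585; 9153 were not), with Benjamini-Hochberg adjustment over all of them and a threshold of 0.05. The +1 understates the change of low genes. With 2 residual degrees of freedom the spread is mostly shared across genes. The labels do not name separate cultures, so the p-values reflect only how far these libraries differ, which may be technical. Libraries of the same antibody differed by more than sampling noise (chi-square per degree of freedom 31.2 and 44.4). FPKM shares times baseMean gave whole reads for 100% of 86952 values (tolerance 0.01 read) and, scaled on 10 mitochondrial genes, exon lengths. The recovery of reads and the limma fit were tested on simulated data, and the exon lengths were not. Overlaps and coordinates are from RefSeq GRCm38.p6.

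The members and lists were chosen with earlier results of these data known. Named genes are the members, their paralogs Akt2 and Rps6kb2, up to 2 called genes per direction of each list, and the 3 genes nearest to the highest and lowest member; a few genes that this rule names are not reported here. Insr, Pik3ca, Pik3cb, Eif4ebp1, Eif4ebp2, Prr5l, Mapkap1 and the GATOR and KICSTOR genes other than Nprl2 and Seh1l were named after their values were seen. The symbols Castor1 and Castor2 were matched through RefSeq synonyms. Alternatives were another pseudocount (0.1), no filter, median ratio scaling, quantile normalisation, the experiment number as a block, removal of the length trend, limma voom on recovered reads, and leaving out each library.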

Additional observations from a re-analysis of the deposited data

How the results depend on the processing

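Over 11 alternatives, Mtor, Rptor, Rictor, Mlst8, Tsc1, Tsc2 and Rheb kept their direction and their call, also without any library. Akt1 kept its sign and lost its call under 7, with an adjusted p from 0.0276 to 0.263, and Rps6kb1 kept its sign and was called lower under 4, with an adjusted p from 0.00286 to 0.275. The number of members called lower was therefore 2 with the length trend removed, quantile normalisation, the replicate block or median ratio scaling. Leaving out each library gave 6 to 7 members higher and 1 lower. Over all tested genes it gave 2389 to 4259 higher and 1101 to 1755 lower, and over the other pathway genes 21 to 41 higher and 6 to 11 lower. Median ratio scaling gave 2870 higher and 2969 lower of all tested genes and 27 other pathway genes higher. Removing the length trend gave 2909 higher and 2952 lower, and 22 higher and 21 lower pathway genes. Both settings also centre the libraries on the tested genes. The difference of Rps6kb2 turned to -0.019 under median ratio scaling and -0.037 under quantile normalisation; the cause was not tested. The replicate block on the experiment number gave 4745 higher and 2099 lower, and called Rps6kb1 and Eif4ebp2 lower (adjusted p of 0.0382 and 0.0268). Deviations of same-numbered libraries correlated at 0.064, so the numbers are not shown to pair them. Each member had 3431 or more recovered reads in every library, and whether depth limited a call was not tested.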
